A study of Homo sapiens with 14 samples.

Results

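Oxidative phosphorylation subunits were followed through every assay of the series. They were defined as the rows of the deposited expression table whose gene symbol begins with NDUFA, NDUFB, NDUFC, NDUFS or NDUFV and a digit, with UQCR, with COX and a digit from 4 to 8, or with ATP5, or is SDHA, SDHB, SDHC or SDHD. The rule took 87 of 21574 rows. Of these, 34 are subunits of complex I, 4 of complex II, 8 of complex III, 17 of complex IV and 15 of complex V, while 9 rows hold pseudogenes, retrocopies, relatives or genes that only share a name. Of the 87 rows, 6 pool several symbols, so that their reads cannot be assigned to the subunit alone: ATP5B with 2 small nucleolar RNAs, ATP5E with SLMO2, ATP5J2 with PTCD1, ATP5L2 with CYB5R3, COX7C with a microRNA, and COX8C with UNC79. The complex I subunits NDUFS8 and NDUFC2 lie in pooled rows that begin with another symbol, and the rule does not take them.

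The study compared cells of a line labelled HepG2, a human hepatocellular carcinoma line, that were stably transfected, per the labels, with scrambled siRNA (control) or with siADAR1 (ADAR1 KD). ADAR1 deaminates adenosine to inosine in double-stranded RNA. The 14 samples comprise 8 PARS-seq libraries, 2 RNA-seq libraries (1 control, 1 ADAR1 KD) and 4 Ribo-seq libraries (2 control, 2 ADAR1 KD). In PARS-seq, poly-A RNA was cut in vitro by S1 nuclease at unpaired bases or by RNase V1 at paired bases, with 2 libraries for each enzyme and condition, and the ends of the fragments were sequenced. Ribo-seq sequences the RNA that ribosomes protect. All groups share the same line, and the study calls its PARS-seq and Ribo-seq replicates biological.

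Oxidative phosphorylation couples the oxidation of NADH and succinate to the synthesis of ATP in the inner mitochondrial membrane. Complex I (NADH dehydrogenase) and complex II (succinate dehydrogenase) feed electrons to complex III (cytochrome bc1) and complex IV (cytochrome c oxidase), and complex V is the ATP synthase driven by the proton gradient. Most subunits are encoded in the nucleus and made by cytosolic ribosomes, and several have tissue-specific isoforms. The rule takes no gene of the mitochondrial genome.

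ADAR, the target of the siRNA, fell in every comparison, but unequally. In RNA-seq it was at 54.8 RPKM (reads per kilobase of transcript, scaled to library size) in control and 15.4 in KD. Its Ribo-seq level went from 43.6 to 8.73 RPKM in the libraries numbered 1, a fall of 80.0%, and from 55.5 to 44.03 in those numbered 2, a fall of 20.6%. Markers of the labelled line were looked up as well. None of 9 hepatocyte markers (ALB, AFP, APOA1, APOB, SERPINA1, TTR, FGB, TF and HNF4A) reached 1 RPKM in any of the 10 columns of the table, and the highest value of any of them was 0.803 RPKM, of HNF4A in the KD RNA-seq library. COL1A1 and COL3A1, which encode fibrillar collagens, were at 6.14 to 96.2 RPKM in all columns, while the other 5 of 7 markers of other cell types looked up (PTPRC, CD3E, PECAM1, VWF and DES) stayed under 1 RPKM in every column. The values therefore go against the label, and the cells are called the cells labelled HepG2. By the most common ratio between libraries among genes with few reads, Ribo-seq control replicate 2 held 3.34 times the reads of control replicate 1, KD replicate 1 held 1.41 times and KD replicate 2 held 2.42 times, and the KD RNA-seq library held 0.742 times the reads of the control one. These factors are estimates: for control replicate 2, 251 genes had the ratio used and 248 the next one, 1.67. The absolute number of reads behind an RPKM value is unknown.

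Rows that can share reads are shown first, because the authors kept only uniquely aligned reads and near-identical copies then depend on a few bases. UQCRH encodes the hinge protein of complex III, and UQCRHL is its intronless retrocopy. Over the 273 coding bases their sequences differed at 4 bases (98.5% identity), with 157 bases in a row without a difference. ATP5E, which encodes the epsilon subunit of complex V, and the pseudogene ATP5EP2 differed at 6 of 153 bases (96.1%). The windows of 30 bases with the most differences are given below from GRCh37, the build of the files, with the differing bases in capitals.
UQCRH (coding exon, chr1:46775883-46775912, plus strand): ccgggagcggctagagctctGtgatgagcG
UQCRHL (coding exon, chr1:16133978-16134007, minus strand): ccgggagcggctagagctctAtgatgagcA
ATP5E (coding exon, chr20:57605392-57605421, minus strand): agcaaatgcTGaGaagacttctggcaGcaA
ATP5EP2 (exon of a processed pseudogene, chr13:28519492-28519521, plus strand): agcaaatgcCAaAaagacttctggcaAcaG

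The 3 genes for subunit c, which forms the membrane rotor of complex V, were compared over the last 225 coding bases, the stretch that encodes the mature protein. They were farther apart at the base level: ATP5G1 and ATP5G2 differed at 25 bases (88.9% identity), and ATP5G3 differed from each of them at 42 (81.3%). Capitals mark the bases at which the 3 are not all alike.
ATP5G1 (coding exon, chr17:46973088-46973117, plus strand): tTttCtgtTtgatggtCgcCttCCtCatCC
ATP5G2 (coding exon, chr12:54059112-54059141, minus strand): tCttTtgtCtgatggtAgcCttTCtCatCC
ATP5G3 (coding exon, chr2:176043030-176043059, minus strand): tCttTtgtTtgatggtTgcTttCTtGatTT

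Subunit mRNAs were among the abundant transcripts of these cells. In control RNA-seq the median of the 87 rows was 81.2 RPKM, above 90.0% of the genes listed at 1 RPKM or more, whose median was 10.1 RPKM. Together the rows held 2.74% of the summed RPKM in the control and 2.51% in the KD library. By complex, the control medians were 86.0 RPKM for complex I, 37.9 for complex II, 81.2 for complex III, 95.4 for complex IV and 144 for complex V, and no spread over samples can be given because RNA-seq had 1 library per condition. The ranges overlapped widely, from 3.45 to 1129.5 RPKM within complex I alone.

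In complex I, NDUFS6, an accessory subunit of the matrix arm that binds zinc, was the highest with 1129.5 RPKM in control and 1076 in KD, and NDUFB7, of the membrane arm, followed with 687 and 672. NDUFA5, an accessory subunit of the matrix arm, was the lowest with 3.45 and 3.61. SDHA, the flavoprotein of complex II, had 161 RPKM in control and 134 in KD. The iron-sulphur subunit SDHB was at 56.0 and 56.3, while SDHC and SDHD, which anchor the enzyme in the membrane, were lower, at 19.8 and 4.20 RPKM in control. In complex III, the core protein UQCRC1 (288 and 250 RPKM) and UQCRH (160 and 163) led. COX4I1 (404 and 343) and COX8A (381 and 380) led in complex IV. In complex V the row of ATP5B, the catalytic beta subunit, was the highest (481 and 343), followed by ATP5D, the delta subunit of the central stalk (296 and 396).

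**Figure D1:**
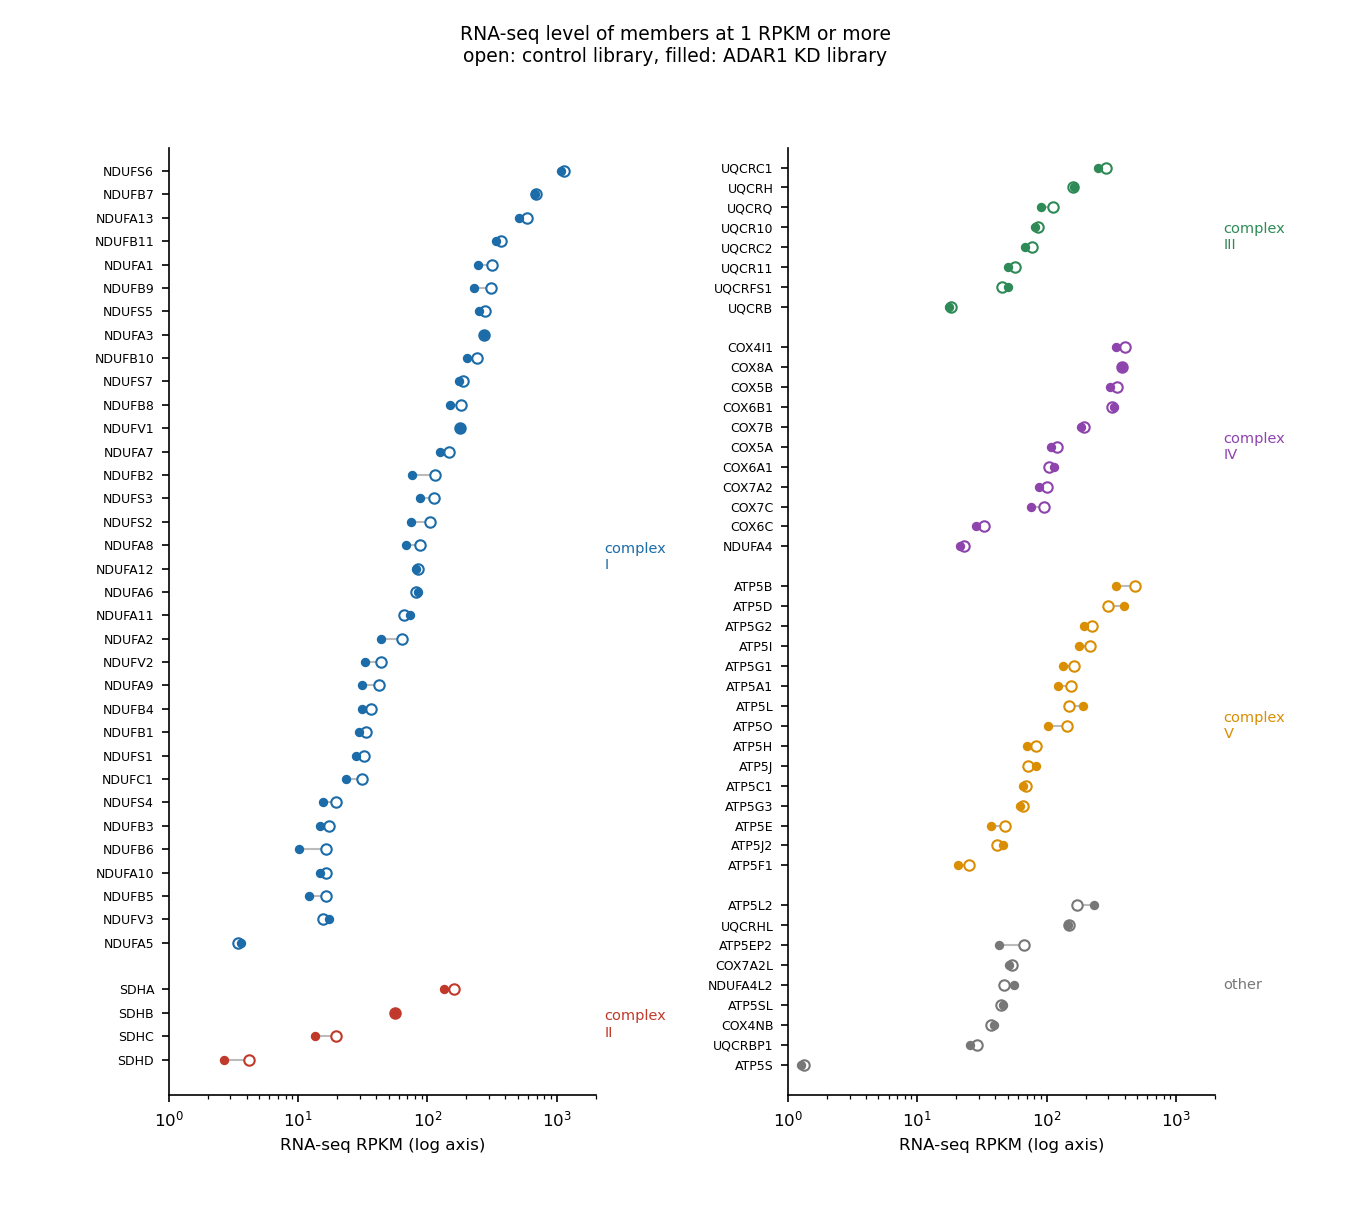
RNA-seq level in RPKM (log axis) of the 81 rows with a mean of at least 1 RPKM, by complex and in falling order of the control library. Open circles are the control and filled circles the ADAR1 KD library, and for 63 of the 81 rows the KD value lies to the left of the control value. Over all 81 rows the median log2 ratio was -0.18 (RPKM + 1).

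Isoforms differed by orders of magnitude within paralogue sets. COX4I1, COX6A1, COX6B1, COX7A2, COX7B and COX8A, the forms found in most tissues, were at 101 to 404 RPKM in control RNA-seq. Their counterparts with restricted expression, COX4I2, COX6A2, COX6B2, COX7A1, COX7B2 and the pooled row of COX8C, stayed under 1 RPKM in all 10 columns, and the highest value of any of them was 0.395 RPKM, of COX7A1 in Ribo-seq control replicate 2. These 6 rows are the ones that failed the filter of a mean of 1 RPKM in RNA-seq and in Ribo-seq. All 3 genes for subunit c were measured, with 161 RPKM for ATP5G1, 224 for ATP5G2 and 65.7 for ATP5G3 in control. COX7A2L, which encodes a factor of supercomplex assembly and no stable subunit, was at 53.9 RPKM. The rows of ATP5S, ATP5SL and COX4NB share only a name or an accessory role with the subunits, and were at 1.34, 44.1 and 37.3 RPKM in this order.

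NDUFA4, now counted with complex IV, was at 22.9 RPKM in control RNA-seq, and its hypoxia-inducible relative NDUFA4L2 at 46.9. The assays did not rank this pair alike. NDUFA4L2 was at 0.367 to 0.614 RPKM in the 4 PARS-seq columns, where NDUFA4 was at 80.6 to 132, and it was the 1 further row that failed the filter there. The Ribo-seq levels of NDUFA4L2 were 9.30 and 40.02 RPKM in control replicates 1 and 2, and 9.59 and 20.6 RPKM in the KD ones, so that the libraries numbered 2 were higher than those numbered 1 in both conditions.

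RNA-seq levels of most subunits were slightly lower in the KD library. In a bulk sample, fewer cells of a type and less RNA per cell cannot be told apart. Of 81 rows with a mean of at least 1 RPKM, the KD library had lower values for 63 and higher values for 18, beside 48.0% of all genes higher. The rows' median log2 ratio was -0.18 (log2 of RPKM + 1) beside -0.01 over all 10946 genes. None was higher by 1.5-fold or more, beside 4.47% of all genes, and 2 were lower by as much, beside 4.66%. These 2 were NDUFB6, of the membrane arm of complex I (16.4 RPKM in control, 10.2 in KD, log2 ratio -0.64), and ATP5EP2 (66.9 and 42.9, -0.63). NDUFB2, also of the membrane arm, came next among the falls with 114 and 76.5 RPKM (-0.57). The largest rises were those of the pooled row of ATP5L2 and CYB5R3 (170 and 232 RPKM, 0.44), of ATP5D (0.42) and of ATP5L, subunit g of complex V (148 and 191, 0.37). By complex, the median log2 ratio was -0.23 for complex I, -0.39 for complex II, -0.12 for complex III, -0.15 for complex IV and -0.22 for complex V. With 1 library per condition these differences have no replicate check and no test.

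The PARS-seq columns of the table, each the authors' mean of an S1 and a V1 library, were lower in KD for most subunits in both same-numbered comparisons. In pair 1 (control and KD columns numbered 1), 70 of 80 rows were lower, with a median log2 ratio of -0.34 beside 0.04 over all 11153 genes. In pair 2, 57 of 80 were lower, with a median of -0.11 beside 0.04. Of all genes, 53.3% were higher in pair 1 and 54.9% in pair 2. Of the 80 rows, 22 were lower by at least 1.2-fold in both pairs, beside 17.3% of all genes, and 3 were higher by as much in both, beside 20.8% of all genes. The 22 included 10 subunits of complex I, 4 of complex III and 4 of complex V. Each column is a mean over libraries cut by different enzymes, and no test was made on these columns.

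SDHD showed the largest fall in the PARS-seq columns, from 10.1 and 7.30 RPKM in control to 3.42 and 2.38 in KD, so that both KD values were below both control values. In RNA-seq it was at 4.20 and 2.65 RPKM. ATP5O, which joins the peripheral stalk to the catalytic head of complex V, went from 187 and 179 RPKM to 102 and 94.7. UQCRFS1, the Rieske iron-sulphur protein of complex III, went from 45.2 and 56.9 to 21.7 and 33.5. The groups did not overlap for either gene, whereas in RNA-seq ATP5O was lower in KD (144 and 103) and UQCRFS1 higher (45.4 and 49.8).

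The 3 rows that were higher in both pairs were NDUFA5, NDUFA6 and ATP5D. NDUFA5 went from 91.1 and 116 RPKM in control to 182 and 175 in KD. NDUFA6, a complex I subunit of the LYR family, went from 217 and 219 to 270.2 and 276, also without overlap. ATP5D overlapped between the groups, with 54.8 and 98.2 RPKM in control and 77.0 and 178 in KD, since the columns numbered 2 were higher in both conditions.

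**Figure D2:**
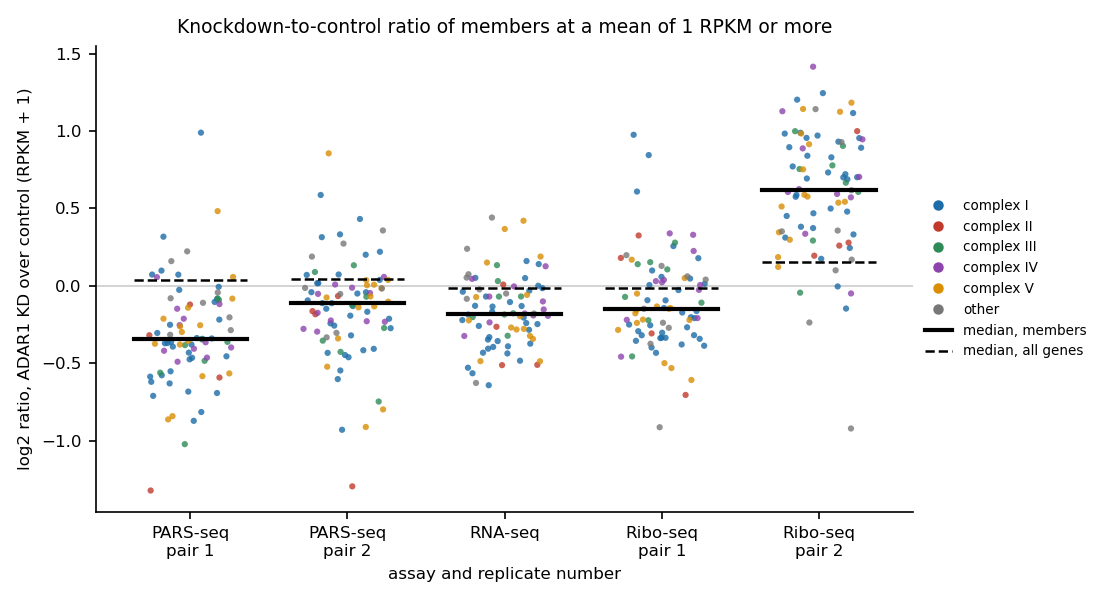
Log2 ratio of ADAR1 KD over control (RPKM + 1) of the rows with a mean of at least 1 RPKM in the assay, 1 point per row, for the 5 comparisons by replicate number. Solid bars are the medians of the members and dashed bars those of all genes: the members' bar is below the dashed one in 4 comparisons and above it, at 0.62, in Ribo-seq pair 2.

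Ribosome-protected reads on the subunits were higher in KD in 1 same-numbered comparison and not in the other. In Ribo-seq pair 1, KD values were below control for 52 of 81 rows and above it for 29, the median log2 ratio being -0.15 beside -0.02 over all 10882 genes. In pair 2, 75 of 81 rows were higher, beside 61.6% of all genes, with a median of 0.62 beside 0.16. Past 1.5-fold, pair 1 had 3 rows higher and 3 lower, beside 9.7% and 11% of all genes, and pair 2 had 46 higher and 1 lower, beside 19.9% and 8.19%. ADAR fell by 20.6% in the pair in which the subunits were higher and by 80.0% in the other, and the part of this in the result was not tested.

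The control libraries differed from each other by more than the same-numbered libraries of the conditions did. Control replicate 2 was lower than control replicate 1 for 72 of 81 rows, beside 6397 of 10882 genes. The median log2 ratio was -1.196, beside -0.24 over all genes. KD replicate 2 was lower than KD replicate 1 for 60 of 81 rows, beside 5946 of 10882 genes (median -0.39, beside -0.09). The rows held 3.69% and 1.74% of the summed RPKM in the 2 control libraries and 3.49% and 2.23% in the KD libraries. ATP5B shows the pattern, with 1011.9 and 435 RPKM in control and 830.2 and 631 in KD: control replicate 2 was the lowest and control replicate 1 the highest of the 4. ATP5G1 ranged more widely, with 347 and 47.1 RPKM in control and 306 and 108 in KD. For COX8A, by contrast, replicate 2 was the higher library in both conditions (271 and 363 RPKM in control, 317 and 351 in KD).

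Against this spread no subunit passed the test. In limma's moderated test with a mean trend, 0 of 81 rows and 0 of 10882 genes had an adjusted p under 0.05 (0% of all genes in each direction). At an unadjusted p under 0.05 there were 29 genes higher and 14 lower, and no row of the 81. The median log2 ratio of the rows in this fit was 0.26, beside 0.08 over all genes. It was -0.30 without control replicate 2 and 0.85 without control replicate 1, so that its sign rests on which control library is used. Both KD libraries lay above both control libraries for 4 of 81 rows, beside 10.7% of all genes, and both lay below for none, beside 7.12%. The 4 were NDUFA5, NDUFB3, SDHB and UQCRHL. NDUFB3 was at 23.2 and 23.2 RPKM in control and 46.7 and 46.0 in KD (log2 ratio 0.97 ± 0.44 SE, adjusted p = 1.00 in limma). SDHB was at 80.7 and 46.0 in control and 101 and 93.0 in KD. The retrocopy UQCRHL was at 29.9 and 21.8 in control and 34.4 and 34.0 in KD. For NDUFA5 the control values were 5.18 and 6.02 RPKM and the KD values 10.1 and 14.2 (0.98 ± 0.41 SE, adjusted p = 1.00 in limma), while its RNA-seq level was 3.45 and 3.61. With 2 libraries against 2, the smallest two-sided p an exact permutation test of a single row allows is 0.333.

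The ratio of Ribo-seq to RNA-seq RPKM relates ribosome-protected reads to mRNA level. Its median was higher for the subunits than for all genes, though barely so in control replicate 2. In control replicate 1 the median ratio of 81 rows was 1.38, beside 0.785 for 9719 genes with at least 1 RPKM in both assays, and 61 of the rows were above the latter. In control replicate 2 the members' median was 0.656, beside 0.631, and 43 were above the latter. Complex I was below all genes there, with a median of 0.547 and 14 of its 34 rows above the median gene. The KD libraries gave 1.46 beside 0.793 and 1.07 beside 0.722. The log2 difference from the median gene was thus 0.57 to 0.88 in control replicate 1 and the KD libraries, and 0.056 in control replicate 2. With the control libraries averaged, the log2 difference from all genes was 0.42. Complex V and complex IV had the highest median ratios in control (1.17 and 1.11), and the rows that are no subunits the lowest (0.438). Each condition has 1 RNA-seq library, so that its error enters all ratios of the condition alike.

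NDUFB5, a membrane-arm subunit of complex I, had the highest mean log2 ratio of all rows over the control libraries, with ratios of 4.25 in replicate 1 and 2.49 in replicate 2, from Ribo-seq levels of 69.2 and 40.6 RPKM over an RNA-seq level of 16.3. The pooled row of COX7C followed with 4.20 and 2.26, and COX6C with 5.06 and 1.70; both genes encode small subunits of complex IV. For each of these 3 rows the ratio in replicate 1 was above that in replicate 2. By the same mean, the lowest rows were UQCRHL (0.202 and 0.148), the pseudogene row UQCRBP1 (0.568 and 0.0785) and the pooled row of ATP5L2 and CYB5R3 (0.306 and 0.170). UQCRBP1 was low chiefly in replicate 2, where its Ribo-seq level was 2.27 RPKM. In replicate 1 alone, NDUFA4L2 (0.198) was below UQCRHL. Parent and copy differed here: UQCRH had ratios of 0.645 and 0.730 at nearly the same RNA-seq level as its copy, 160 against 148 RPKM. ATP5EP2 was not among the low rows, with 183 and 71.1 RPKM in Ribo-seq control over 66.9 in RNA-seq (ratios of 2.74 and 1.06). How reads of such copies were divided by the alignment was not tested.

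**Figure D3:**
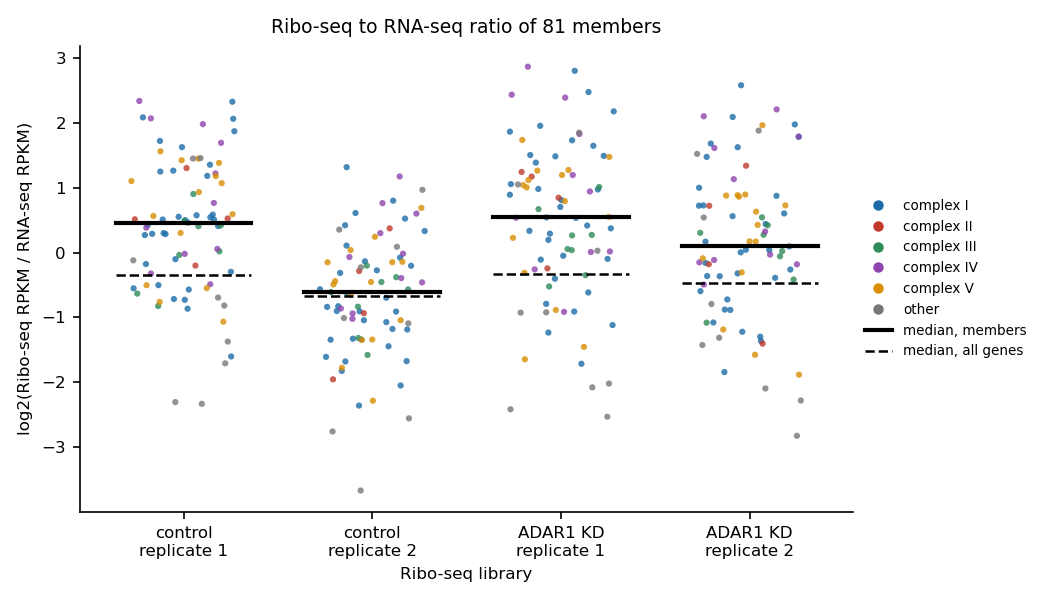
Log2 ratio of Ribo-seq to RNA-seq RPKM of 81 rows in each Ribo-seq library, 1 point per row, coloured by complex. Solid bars are medians of the members and dashed bars those of all genes with at least 1 RPKM in both assays: the 2 bars nearly meet in control replicate 2 and are apart in the other 3 libraries.

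The change of this ratio with the knockdown also differed between the pairs. In pair 1 the median log2 change of 81 rows was 0.09, beside 0.01 over all genes, and 49 rows were above 0, beside 4725 of 9238 genes. In pair 2 it was 0.88, beside 0.20, and 75 were, beside 5951 of 9687 genes. The median for complex I was 0.10 in pair 1 and 0.95 in pair 2, and that for complex V 0.051 and 0.92. Some rows had like values in both pairs. NDUFB3 had log2 changes of 1.22 and 1.204, NDUFA5 of 0.90 and 1.18, and SDHC of 0.73 and 0.76. ATP5D was lower in both, with -0.58 and -0.23. For NDUFB6 the values were 0.74 and 1.98, from Ribo-seq levels of 68.8 and 17.7 RPKM in control and 71.1 and 43.4 in KD.

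For 35 rows, the read starts of S1 and V1 could be read per transcript, because a supplementary list of the study pairs their transcript identifiers with symbols. In 1 of the 35, the transcript is the readthrough ATP5J2-PTCD1 and not that of the subunit alone. That list was chosen by the study on changes of structure in these same libraries, so that counts over the 35 are no independent evidence. Each value is a sum of read starts over 1 transcript. Over all transcripts of a library, the totals were 96618292 to 139104794 for S1 and 113273927 to 214584779 for V1. Within the 35, sums in the control libraries ranged from 1618 read starts (NDUFS4, V1 replicate 2) to 302201 (ATP5B, S1 replicate 2).

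Only 1 of the 35 transcripts passed the S1 test and none passed the V1 test, in fits without pairing by replicate number. With libraries paired by number, 15 of the 35 were called lower with V1 (42.9%, beside 19.1% of all transcripts) and 1 higher (2.86%, beside 15.3%). With S1, 2 were then higher (5.71%, beside 15.0%) and 1 lower (2.86%, beside 15.8%). The labels do not say that a number marks a shared batch. NDUFA5 had 23442 and 27338 S1 read starts in the control libraries and 47973 and 32170 in the KD libraries, a log2 ratio after scaling of 1.04 ± 0.23 (SE) with an adjusted p of 0.00328 in limma over 4721 transcripts. After scaling, the values were 18963 and 25457 in control and 47430.4 and 42967 in KD, so that both KD values were above both control values. Over all transcripts, 6.57% were called higher and 9.07% lower with S1 (310 and 428), and when the libraries were scaled by their totals, 70 and 878. On that scale NDUFA5 stayed higher (0.67, adjusted p = 0.0431 in limma), and 4 other subunits were called lower. With V1, control libraries had 13291 and 15034 read starts on it and KD libraries 25839 and 20163, but the log2 ratio of 0.35 ± 0.19 (SE) did not pass (adjusted p = 0.288 in limma), although both scaled KD values (19348 and 21086) were above both control values (14902 and 16812). NDUFA6 was next with S1, at 20804 and 18906 in control and 24831 and 18720 in KD (0.53 ± 0.22 SE, adjusted p = 0.104 in limma). After scaling its values were 16829 and 17605 in control and 24550.1 and 25003 in KD, without overlap, although the call was not made. Such separation was not particular to rises. With both enzymes, more of the 35 had both scaled KD values below both control values than above them. The same count over all transcripts was not made.

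With V1, 3.86% of 16982 transcripts were called higher and 6.47% lower (655 and 1099), or 345 and 1306 with scaling by totals and 906 and 902 with totals that leave out the most covered transcript. None of the 35 was called, and 11 had an unadjusted p under 0.05, all of them lower in KD, beside 14.4% of all transcripts lower and 11.3% higher at that p. The median log2 ratio of the 35 was -0.30 with V1, beside 0.02 over all transcripts, and -0.14 with S1, beside 0.01. NDUFB6 came closest with V1, at 18544 and 17246 in the control libraries and 15827 and 12798 in the KD libraries (-0.67 ± 0.19 SE, adjusted p = 0.0516 in limma). Without V1 control replicate 2, 7 of the 35 were called lower, beside 12.7% of all transcripts in that fit, whose control arm is 1 library assumed to vary like the KD arm. NDUFV2, a core subunit of complex I that holds an iron-sulphur cluster, followed with 38285 and 32005 in control and 31978 and 24735 in KD (-0.66 ± 0.20 SE, adjusted p = 0.0678 in limma).

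**Figure D4:**
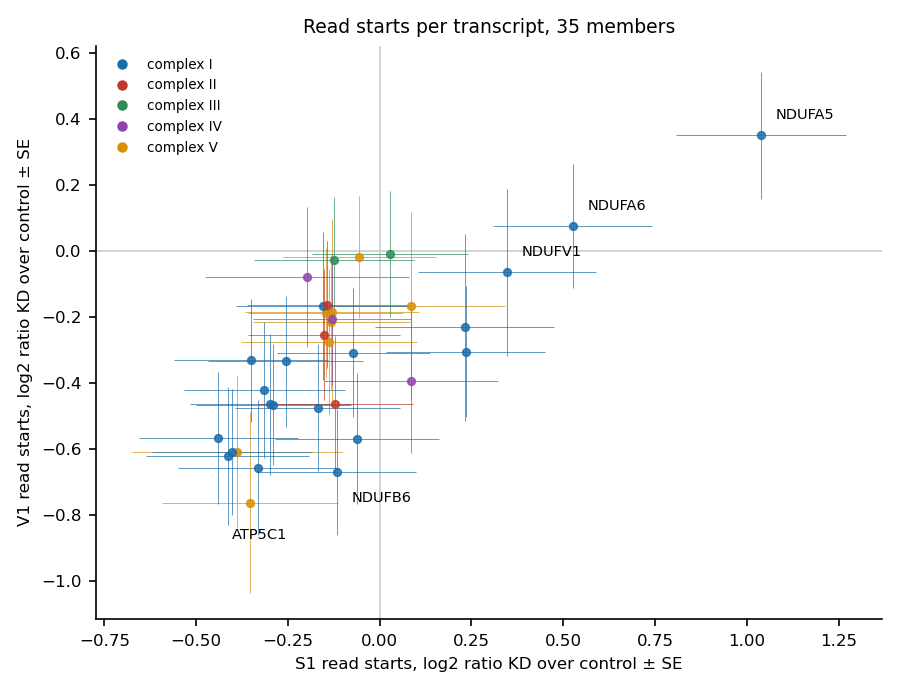
Log2 ratio of read starts per transcript, ADAR1 KD over control, with S1 (horizontal) and V1 (vertical) for the 35 rows coloured by complex, with bars of 1 SE from the limma fit. NDUFA5 stands at the upper right with 1.04 and 0.35, and NDUFB6 and ATP5C1 are at the bottom with -0.67 and -0.76 on the V1 axis.

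The NDUFA5 signal came from a short stretch of its transcript. Of the 1550 bases, positions 201 to 400 held 89.3% and 92.0% of the S1 read starts in the control libraries and 92.0% and 93.3% in the KD libraries. With V1 the shares were 88.8% and 92.7% for control and 84.1% and 88.5% for KD. The window from 301 to 400 had 11091 and 14318 S1 read starts in the control libraries, against 27249 and 20155 in the KD libraries. In the next window, from 401 to 500, they went the other way, with 320.0 and 554 in control and 123 and 144 in KD. The base with the most S1 read starts was position 287 in both control libraries and position 349 in both KD libraries, while with V1 it was position 319 in all 4. Scaled to 1000000 read starts of a library, the S1 values from 301 to 400 were 105 and 116 in control against 196 and 209 in KD, without overlap. The total of S1 control replicate 1 covers 4722 listed transcripts and those of the other S1 libraries 21052 to 21496. This scale is also not that of the S1 test. The V1 values there were 67.9 and 86.7 against 66.1 and 105, and these groups overlapped. NDUFA5 also had the largest ratio of PARS-seq to RNA-seq RPKM of all 80 rows in control, with a log2 ratio of 4.89 beside a median of 0.52 for the members.

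**Figure D5:**
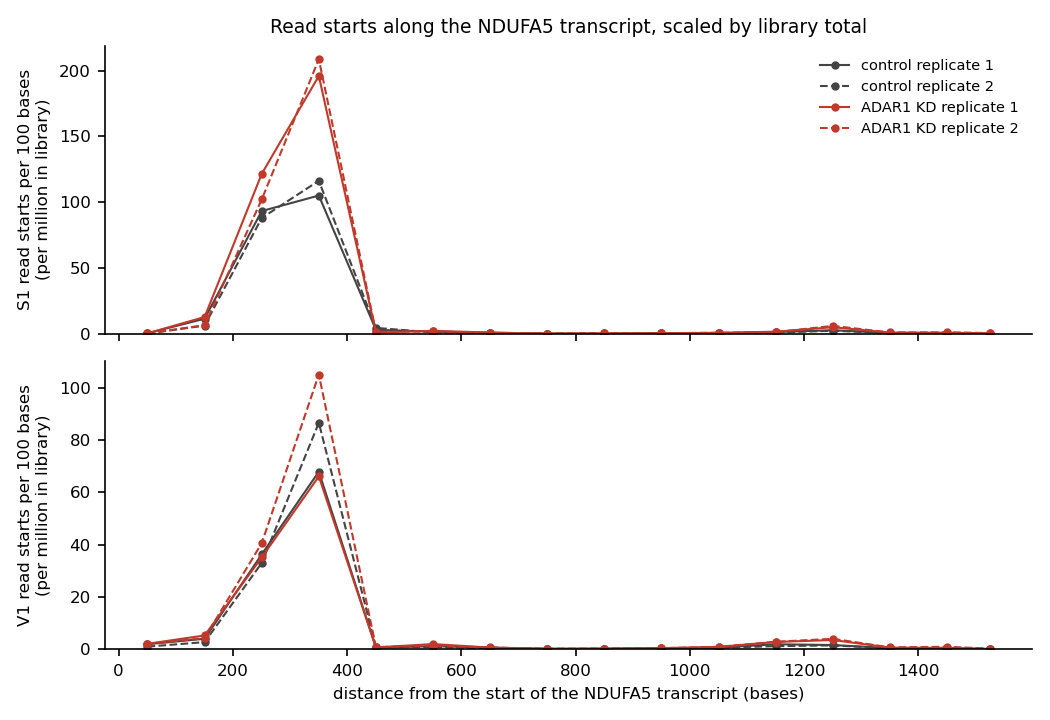
Read starts per 100 bases along the NDUFA5 transcript, per 1000000 read starts of the library, in the 4 S1 libraries (top) and the 4 V1 libraries (bottom), by distance in bases from the start of the transcript. The library total of S1 control replicate 1 covers only 4722 listed transcripts. Most read starts lie between bases 201 and 400, and from 301 to 400 both KD libraries exceed both control libraries with S1 (196 and 209 against 105 and 116), whereas the V1 libraries overlap.

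Other genes of the pathway were taken from lists, and none of them was called in the Ribo-seq test, in which no gene of 10882 was. Over all genes the median log2 ratio was -0.01 in RNA-seq, -0.02 and 0.16 in Ribo-seq pairs 1 and 2, and 0.04 in each PARS-seq pair. The share of all genes that were higher was 48.0% in RNA-seq, 47.1% and 61.6% in the Ribo-seq pairs, and 53.3% and 54.9% in the PARS-seq pairs. A list of 4 further subunits and carriers holds NDUFAB1, CYC1, CYCS and ATPIF1. They had median log2 ratios of -0.02 in Ribo-seq pair 1 and 0.72 in pair 2, with 3 of 4 lower in RNA-seq. In PARS-seq pair 1, 3 of the 4 were lower (median -0.49), and in pair 2, 2 were (median -0.038). CYCS, which encodes cytochrome c, was higher in both, with 13.9 and 16.8 RPKM in control and 25.2 and 29.2 in KD. Of 40 assembly factors listed, 33 were in the table. In Ribo-seq their median was 0.08 in pair 1 and 0.41 in pair 2, with 27 of 33 higher in the latter, and in RNA-seq 20 of 32 were lower (median -0.13). In PARS-seq 19 of 33 were lower in pair 1 (-0.034) and 17 in pair 2 (-0.0038). All 14 enzymes of the tricarboxylic acid cycle were measured. Of these, 11 were lower in RNA-seq (median -0.10), 11 were lower in Ribo-seq pair 1 (-0.19), and 12 were higher in pair 2 (0.36). In PARS-seq, 11 were lower in pair 1 (-0.22) and 8 higher in pair 2 (0.019). For 14 regulators of mitochondrial biogenesis the signs were in part the opposite: 10 of 13 were higher in RNA-seq (0.11), 11 of 14 in PARS-seq pair 1 (0.30) and 10 of 14 in PARS-seq pair 2 (0.17). In Ribo-seq, 8 of these 14 were higher in pair 1 (0.092) and 9 in pair 2 (0.21).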

How the data were processed

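Reads were trimmed and aligned by the authors, whose processing notes name cutadapt, Bowtie2 and the build hg19 (GRCh37). For RNA-seq and Ribo-seq, and for the mean of the S1 and V1 library of each PARS-seq replicate, RPKM values per RefSeq gene, from reads with a unique alignment, were deposited by the authors. For each PARS-seq library, the authors also deposited, base by base, how many reads start along a transcript, with no normalization (other unit: 1 list of numbers per transcript). Groups came from the labels. The members and lists were chosen with earlier results of these data known.

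RPKM were tested for Ribo-seq with limma 3.58.1 (R 4.3.3, mean trend) on log2(RPKM + 1) where the mean was 1 or more, and fold changes on this scale understate those of low genes. Read starts were summed per transcript, scaled by the median ratio, and tested for S1 and V1 separately on log2(sum + 0.5) for transcripts listed in all 4 libraries with a mean of at least 10. S1 control replicate 1 lists 4722 transcripts and the others 21052 to 22402, which limits the S1 test. P-values were adjusted by Benjamini-Hochberg over all features, with calls at an adjusted p under 0.05. RNA-seq (1 library per condition) and PARS-seq RPKM (the authors' means) were compared with no test, by 1.5-fold and by 1.2-fold in both pairs. Ratios of Ribo-seq to RNA-seq needed at least 1 RPKM in both. P-values measure only the spread between libraries.

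Named genes were the 2 with the highest control RNA-seq level in each complex, every member called in a test, the 3 highest and lowest ratios of Ribo-seq to RNA-seq in control, the 3 largest rises and falls in RNA-seq and in PARS-seq RPKM, the paralogue sets, and rows that are no subunits. The remaining names were chosen after their values were seen. Sequences came from GENCODE v44 lifted to GRCh37. Alternatives covered filters, pseudocounts, scaling, the replicate number as a block and leaving out each library.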

Additional observations from a re-analysis of the deposited data

How the results depend on the processing

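Of 100 alternatives to 13 results, 81 left the value within the spread between replicates (or the count within 1.5 times), and 19 did not. The cause was not tested. That spread was the standard deviation of 2 values, 1 per pair or control library. The value of 1 pair alone falls within it nearly by construction. The Ribo-seq median of -0.15 with pair 1 alone is therefore among the 81, although it was 0.26 in the main fit and its sign changed. With the replicate block (libraries of the 2 conditions paired by number), calls were 143 in Ribo-seq (85 higher, 58 lower, none of the 81 rows). They were 1453 with S1 and 5840 with V1. Of the S1 and V1 calls, 3 and 16 were subunits, 8.57% and 45.7% of the 35, beside 30.8% and 34.4% of all transcripts. With V1, 15 were lower (42.9%, beside 19.1% of all transcripts) and 1 was higher (2.86%, beside 15.3%). The labels do not say that a number marks a shared batch, although same-numbered libraries deviated together (correlations of 0.81, 0.47 and 0.38 in Ribo-seq, S1 and V1). With the block, NDUFA5 had an adjusted p of 0.0818 in the Ribo-seq limma fit. In the V1 limma fit with the block, NDUFB6 was called lower (adjusted p = 2.69e-05) and NDUFA5 higher (adjusted p = 0.0470). Leaving out a library moved the calls over all transcripts from 738 to between 383 and 873 with S1 (383 without control replicate 1, 477 without KD replicate 2), and from 1754 to between 688 and 3864 with V1 (3864 without control replicate 2, 980 and 688 without KD replicate 1 or 2). The members called were 1 in each such S1 fit and 0 to 7 with V1. NDUFA5 was called in each of the S1 fits (highest adjusted p 0.0463 in limma), but each has an arm of 1 library that is assumed to vary like the other arm. With scaling by totals 5 subunits were called with S1 (14.3%, beside 20.1% of all transcripts), and with at least 100 read starts 1 was called with V1 (2.86%, beside 12.2%). That member was NDUFB6 (adjusted p = 0.0484 in limma).

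The members' median log2 ratio in Ribo-seq lay between -0.30 and 0.85 when a library was left out, and was -0.15 with pair 1 alone and 0.62 with pair 2 alone, alternatives chosen after seeing the data. The change of the ratio of Ribo-seq to RNA-seq, relative to all genes, was 0.35 and lay between -0.054 and 0.83 without a library; it was 0.08 with pair 1 alone and 0.68 with pair 2 alone. The control ratio relative to all genes was 0.42, between 0.056 and 0.81 without a library, and -0.14 when not compared with other genes. With a pseudocount of 5, no row was past 1.5-fold in RNA-seq. In PARS-seq, 51 rows were past 1.2-fold in pair 1 alone and 30 in pair 2 alone (63.75% and 37.5% of 80 rows, beside 55.1% and 48.5% of all genes), beside 25 in both. Of the 51, 48 were lower (60.0%, beside 25.7% of all genes), and of the 30, 23 were (28.75%, beside 21.4%), against 22 lower in both. Depth limits low rows such as NDUFA5 and SDHD in RNA-seq and Ribo-seq.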

Other observations

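Read starts of the other subunits were also concentrated. Over 35 transcripts, the 100 bases with the most read starts held a median of 52.0% to 55.1% of the read starts of a transcript in the 4 S1 libraries and of 44.9% to 49.2% in the 4 V1 libraries. NDUFB6 was among the most concentrated, with 76.5% to 84.3% over the 8 libraries for a transcript of 873 bases, of which 100 bases are 11.5%. NDUFB3, at 770 bases, had 59.0% to 73.4%. UQCRC1 was spread more evenly, with its best 100 bases at 19.6% to 30.3% of the read starts over 1636 bases. In ATP5B, S1 and V1 differed: the best 100 bases held 53.0% and 66.0% of the S1 read starts in control, and 22.5% and 36.3% of the V1 read starts.

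PARS-seq and RNA-seq set the subunits in different orders. Relative to RNA-seq, control PARS-seq RPKM were highest for NDUFA5, NDUFB3 (log2 ratio 3.93) and COX6C (3.57), and, among the 80 rows with a mean of at least 1 RPKM in PARS-seq, lowest for the pooled row of ATP5L2 (-3.20), NDUFS7 (-2.90) and ATP5D (-2.01). NDUFA4L2, under 1 RPKM in each PARS-seq column and at 46.9 RPKM in control RNA-seq, failed that filter and was not ranked.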
